A study of Mus musculus with 10 samples.

Results

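Genes of the bone morphogenetic protein (BMP) pathway and their Id target genes were examined in sorted epithelial cells of the mouse small intestine. The 10 genes, Bmp2, Bmpr1a, Bmpr2, Bambi, Smad6, Smad7, Id1, Id2, Id3 and Id4, were found by name among the 54532 genes of the count table, and all 10 were among the 15703 genes tested. The cells came from 5 litter-matched Gucy2c-GFP mice of the CD1/ICR stock, aged 10 weeks, in which the promoter of Gucy2c, the intestinal receptor for guanylin and uroguanylin, drives green fluorescent protein. From each mouse 20000 cells with high fluorescence (GUCY2Chi) and 20000 with medium fluorescence (GUCY2Cmed, named both Medium and Lo in the labels) gave 1 library each, so that all 10 libraries carry the reporter and the groups differ by the gate. The libraries of each group carry the numbers 2, 7, 12, 14 and 15, taken here as the numbers of the mice. The question was which of these genes differed in RNA level between the cells of the 2 gates.

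BMP ligands, such as the one encoded by Bmp2, bind pairs of type I and type II receptor kinases, which include BMPR1A and BMPR2, and the receptors phosphorylate Smad proteins that enter the nucleus with SMAD4. Id1, Id2, Id3 and Id4 are classical targets of these Smads and encode proteins that bind basic helix-loop-helix (bHLH) factors but not DNA, so that they hold those factors off their sites. Smad6 and Smad7 encode inhibitory Smads, and Bambi encodes a receptor-like protein without a kinase domain. In the intestine BMP signaling is known to be strongest along the villus and to be held low around the crypt base by secreted antagonists.

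Library totals ran from 10903958 to 15307932 counts. Levels are given as TMM-scaled counts relative to library total (cpm), and differences as log2 fold changes of GUCY2Chi over GUCY2Cmed from edgeR's quasi-likelihood test, with Benjamini-Hochberg adjustment over all genes tested and a threshold of 0.01. Gucy2c itself was between 549 and 1757 cpm in GUCY2Chi libraries and between 323 and 483 cpm in GUCY2Cmed libraries. The epithelial marker Epcam was between 1242 and 1904 cpm in GUCY2Chi libraries and between 2049 and 3050 cpm in GUCY2Cmed libraries. Its groups did not overlap, but it was not called (log2 fold change -0.69, adjusted p = 0.0279 by edgeR). All 16 enteroendocrine markers rose, and their summed level was between 36730 and 142700 cpm in GUCY2Chi libraries against 125 to 429 cpm in GUCY2Cmed libraries. GUCY2Chi libraries 12 and 15 stood apart: their summed level of 12 enterocyte markers was 32520 and 32960 cpm, against 3655 to 5068 cpm in the other 3 GUCY2Chi libraries and 60180 to 78180 cpm in GUCY2Cmed libraries. These are bulk libraries, in which fewer cells of a type and less RNA per cell cannot be told apart.

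Promoter windows of 6 of the 10 genes, Id2, Id3, Id4, Smad6, Bmpr1a and Bmpr2, were matched by symbol in RefSeq (GRCm38.p6), each with 250 bases before the transcript start and 50 after it. They were searched on both strands for GGCGCC, the GC-rich BMP element, for the palindromic Smad element GTCTAGAC and for the shorter Smad element GTCT (AGAC on the other strand), which overlaps both ends of the palindrome. The Id2 stretch is shown because Id2 rose most among the Id genes. In capitals is GGCGCC, 231 bases before the start.
Id2, chr12:25096305-25096334, minus strand: caggccccctgGGCGCCcagcgcacactgt
Id4, with GGCGCC in capitals, and Smad6, with GTCTAGAC in capitals, are shown because they hold 1 of these words and were not called, and Id3, with AGAC in capitals, because it rose and held neither longer word in its window.
Id3, chr4:136143643-136143672, plus strand: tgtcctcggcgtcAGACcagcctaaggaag
Id4, chr13:48260956-48260985, plus strand: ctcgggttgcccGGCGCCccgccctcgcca
Smad6, chr9:64022048-64022077, minus strand: ggagccgccaaagtGTCTAGACtggcatat
GGCGCC was found in the windows of Id2, Id4, Bmpr1a and Bmpr2 and in 11.9% of all 32851 windows. GTCTAGAC was found only in that of Smad6 among the 6, where it spans the transcript start, and in 0.213% of all windows. GTCT occurred in 88% of all windows. The windows of Id2, Id3, Bmpr1a and Bmpr2 lie inside the span that the count table gives these genes, which begins further upstream than the RefSeq start. That of Smad6 overlaps the gene's span at its start, and that of Id4 lies before it. A match is a description of the letters and not of binding.

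Bambi, Id2 and Id3 rose in GUCY2Chi cells, and the other 7 genes passed the test in neither direction. Bambi was 18.7-fold, Id2 4.31-fold and Id3 2.17-fold higher. Thus 3 of 10 genes were called higher, beside 13.9% of all genes tested, and 0 of 10 were called lower by edgeR, beside 8.79% of all genes. Both Bmp2 and Smad7 had a lower mean in GUCY2Chi cells at an unadjusted edgeR p under 0.05 (2 of 10 genes). At that threshold 4 of the 10 genes were higher. Of all 15703 genes tested, 3434 were lower and 4025 higher at the same threshold. Both limma-voom and DESeq2 also called 0 of the 10 genes lower. Bambi and Id2 had every GUCY2Chi library above every GUCY2Cmed library, a pattern shown by 16.7% of all genes tested.

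**Figure D1:**
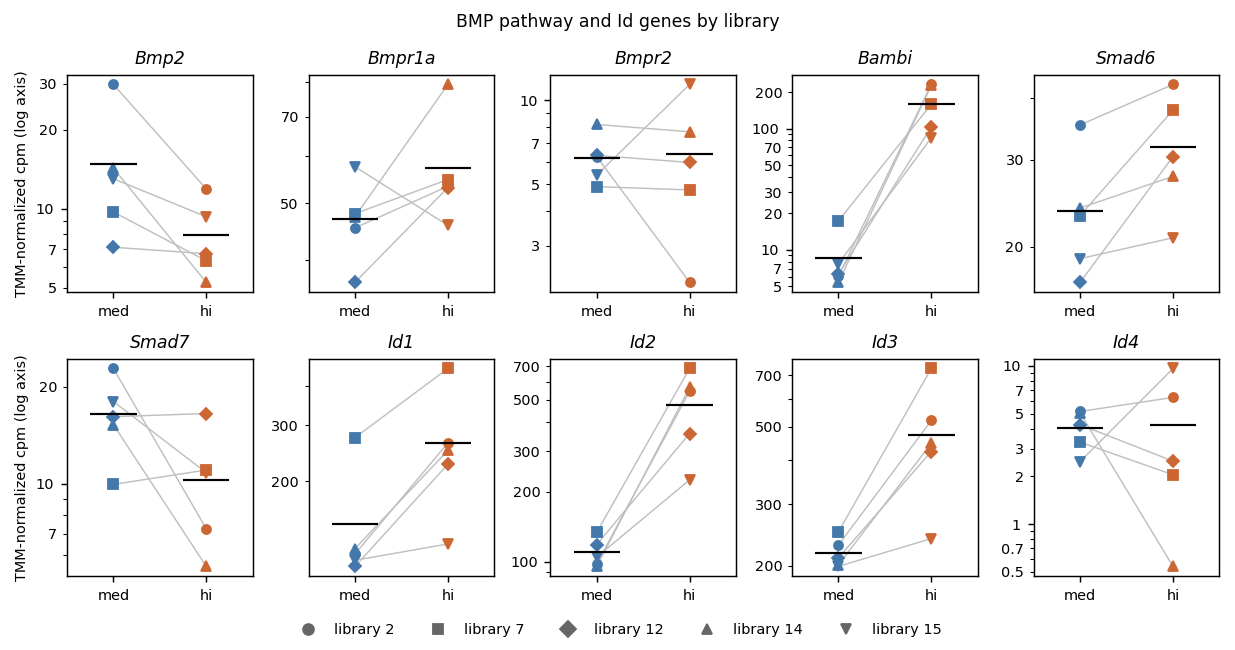
Level of each gene in the 10 libraries, as TMM-normalized cpm on log axes that differ between panels. Blue points are GUCY2Cmed and orange points GUCY2Chi libraries, marker shapes and grey lines join libraries of the same number, and black bars are group means. Points of the groups are apart for Bambi and Id2, meet at 1 library for Id3, and intermingle for Id4 and Bmpr2.

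Bmp2, the ligand of the set, lies on chromosome 2 (133552159 to 133562885, GRCm38). It was at 11.9, 6.33, 6.74, 5.24 and 9.32 cpm in GUCY2Chi libraries 2, 7, 12, 14 and 15. In the GUCY2Cmed libraries, in the same order, it was at 29.8, 9.71, 7.13, 14.3 and 13.0 cpm. The GUCY2Chi library was the lower in 5 of 5 numbers, but the ranges overlapped, and GUCY2Cmed library 2 was far above the rest of its group. The log2 fold change was -0.90 (SE 0.38, adjusted p = 0.0806 by edgeR, 95% interval -1.73 to -0.07). The exact two-sided permutation test on log2(cpm + 0.5) gave p = 0.0714. That test shuffled the libraries without regard to their numbers, and 5 libraries against 5 then allow no p below 0.00794. Without GUCY2Cmed library 2 the log2 fold change was -0.43.

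The type I receptor gene Bmpr1a (chromosome 14, 34410734 to 34503341) was the better expressed of the receptors. Its level was 53.4, 54.8, 53.1, 79.4 and 45.9 cpm in GUCY2Chi libraries 2, 7, 12, 14 and 15, and 45.4, 48.0, 36.7, 47.5 and 57.6 cpm in GUCY2Cmed libraries. GUCY2Chi library 14 was the highest and the groups overlapped. Bmpr1a differed by a log2 fold change of 0.28 (SE 0.18, adjusted p = 0.241), with an interval from -0.11 to 0.68. Bmpr1a overlaps Gm17110 on the opposite strand, which held 360 counts in all libraries against 7061 for Bmpr1a, and whether counting used the strand is not given in the sources used here.

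The type II receptor gene Bmpr2 (chromosome 1, 59763400 to 59879014) was at 2.22, 4.76, 5.98, 7.71 and 11.4 cpm in GUCY2Chi libraries and at 6.27, 4.90, 6.34, 8.19 and 5.39 cpm in GUCY2Cmed libraries, with 33 to 181 counts a library. The GUCY2Chi libraries held both the lowest and the highest value. The log2 fold change was 0.04 (SE 0.37, adjusted p = 0.949, interval -0.77 to 0.86), and its sign turned in several of the alternatives. The highest value, in GUCY2Chi library 15, went with the highest summed level of 10 forebrain neuron genes, 1610 cpm, which ran from 224 to 769 cpm in the other GUCY2Chi libraries and from 16.6 to 861 cpm in GUCY2Cmed libraries. The next highest GUCY2Chi sum, 769 cpm in library 7, went with 4.76 cpm of Bmpr2, and 272 cpm in library 14 went with 7.71 cpm. The part of neuron RNA in the Bmpr2 level was not tested.

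Bambi, the pseudoreceptor gene on chromosome 18 (3507957 to 3516404), had the largest change of the set. It was at 231, 159, 103, 227 and 83.9 cpm in GUCY2Chi libraries 2, 7, 12, 14 and 15. In the GUCY2Cmed libraries it was at 6.09, 17.3, 6.34, 5.41 and 7.70 cpm. The groups were far apart, and GUCY2Cmed library 7 stood above the other 4 of its group. Bambi rose by a log2 fold change of 4.23 (SE 0.43, interval 3.29 to 5.16, adjusted p = 4.17e-05 by edgeR). The exact permutation p of 0.00794 was the smallest that 5 libraries against 5 allow when their pairing by number is left out. Within numbers the ratio of the 2 gates was 38, 9.14, 16.2, 42 and 10.9 for libraries 2, 7, 12, 14 and 15. A pseudogene with similar sequence, Bambi-ps1, held 149 counts in all libraries against 12230 for Bambi.

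The inhibitory Smad genes did not pass the test. Smad6 (chromosome 9, 63953076 to 64022059) was at 42.6, 37.8, 30.4, 27.8 and 20.8 cpm in GUCY2Chi libraries and at 35.3, 23.1, 16.9, 24.0 and 18.9 cpm in GUCY2Cmed libraries. The GUCY2Chi library was the higher in 5 of 5 numbers, by a ratio between 1.1 and 1.8, while the ranges overlapped. Its log2 fold change was 0.43 (SE 0.25, adjusted p = 0.19, interval -0.10 to 0.97). Smad7 (chromosome 18, 75367529 to 75395935) was at 7.26, 11.0, 16.5, 5.55 and 10.8 cpm in GUCY2Chi libraries and at 22.8, 9.96, 16.1, 15.2 and 18 cpm in GUCY2Cmed libraries. The values overlapped, with 2 GUCY2Chi libraries below the whole GUCY2Cmed group and the GUCY2Chi library lower in 3 of 5 numbers. Its log2 fold change was -0.68 (SE 0.31, adjusted p = 0.101, interval -1.35 to -0.01).

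**Figure D2:**
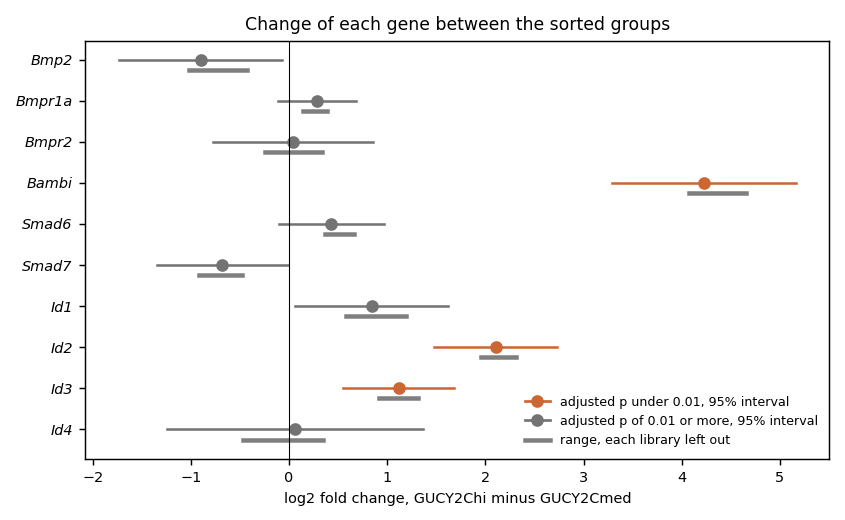
Log2 fold change of each gene, GUCY2Chi minus GUCY2Cmed, as points with 95% intervals, orange where the adjusted p was under 0.01. Thick grey lines give the range over 10 fits that each left out 1 library: that of Id3 runs from 0.92 to 1.32, and those of Bmpr2 and Id4 span 0.

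Of the Id genes, Id2 changed most. Id2 (chromosome 12, 25093799 to 25097140), whose promoter stretch is given above, was at 544, 683, 358, 565.5 and 226 cpm in GUCY2Chi libraries 2, 7, 12, 14 and 15. It was at 97.9, 134, 119, 95.4 and 105 cpm in GUCY2Cmed libraries. Every GUCY2Chi library was above every GUCY2Cmed library, and libraries 12 and 15 were the lowest of the GUCY2Chi group. Id2 rose by a log2 fold change of 2.11 (SE 0.29, interval 1.48 to 2.73, adjusted p = 0.000288 by edgeR; exact permutation p = 0.00794), and the ratio within numbers ran from 2.16 in library 15 to 5.92 in library 14.

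Id3 (chromosome 4, 136143497 to 136145755) was at 520.3, 732, 424, 448 and 239 cpm in GUCY2Chi libraries 2, 7, 12, 14 and 15 and at 229, 250.2, 211, 201.5 and 199 cpm in GUCY2Cmed libraries. GUCY2Chi library 15 fell below GUCY2Cmed library 7, while the other 4 GUCY2Chi libraries were above the whole GUCY2Cmed group. Id3 rose by a log2 fold change of 1.12 (SE 0.26, interval 0.55 to 1.68, adjusted p = 0.00627 by edgeR; exact permutation p = 0.0159). The call was close to the threshold: with the mouse number as a block in edgeR the log2 fold change was 1.03 and the adjusted p 0.0134, and it was kept in 3 of 10 fits that left out 1 library, with adjusted p between 0.000823 and 0.0185. It was lost without any one of the 5 GUCY2Cmed libraries, without GUCY2Chi library 2 and without GUCY2Chi library 14.

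Id1 (chromosome 2, 152736251 to 152737410) was at 264, 452.5, 226, 250.0 and 127 cpm in GUCY2Chi libraries and at 118, 274.5, 108, 123 and 113 cpm in GUCY2Cmed libraries. Within each number the GUCY2Chi library was the higher, by a ratio between 1.13 and 2.23, whereas across numbers the groups overlapped because library 7 was the highest of both groups. The log2 fold change was 0.84 (SE 0.36, adjusted p = 0.0822, interval 0.06 to 1.62; exact permutation p = 0.0952). Under limma's voomWithQualityWeights it was 1.12 and passed (adjusted p = 0.00322), and over all alternatives its adjusted p lay between 0.00322 and 0.19.

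Id4 (chromosome 13, 48261228 to 48266026) was the least expressed Id gene, with 7 to 153 counts a library. It was at 6.32, 2.05, 2.5, 0.54 and 9.64 cpm in GUCY2Chi libraries and at 5.15, 3.29, 4.25, 5.03 and 2.48 cpm in GUCY2Cmed libraries. The GUCY2Chi libraries held the lowest and the highest values, and the highest was again library 15. The log2 fold change was 0.06 (SE 0.59, adjusted p = 0.956, interval -1.24 to 1.36), an interval wide enough to hold a change of 2-fold in either direction.

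The GUCY2Chi libraries did not give these genes at 1 level. The levels of Id2, Id3 and Bambi were lowest in libraries 12 and 15, the libraries with the most enterocyte and the least enteroendocrine marker RNA (84820 and 36730 cpm summed, against 118100 to 142700 cpm in libraries 2, 7 and 14). With these 2 libraries left out, the log2 fold change of Id3 was 1.41 (adjusted p = 0.000278), and with all 4 libraries numbered 12 and 15 left out it was 1.33 (adjusted p = 0.00565). Bambi and Id2 were called in both of these fits too. Both fits leave out the 2 lowest GUCY2Chi levels of Id2, Id3 and Bambi, which by itself raises that group's mean. They therefore add no support to the calls. The part of enterocyte or enteroendocrine RNA in the levels of Id2, Id3 and Bambi was not tested.

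**Figure D3:**
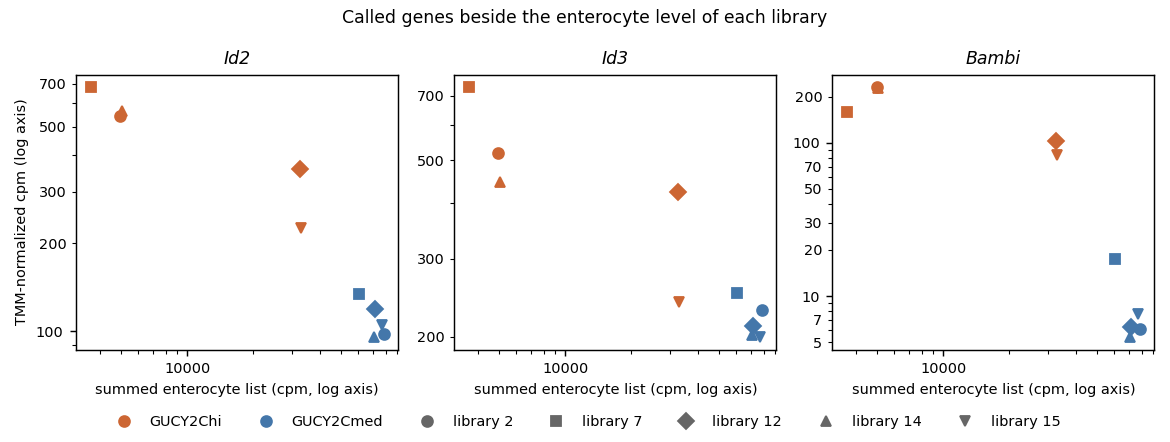
Levels of Id2, Id3 and Bambi against the summed level of 12 enterocyte markers in each library, both as TMM-normalized cpm on log axes. Orange points are GUCY2Chi and blue points GUCY2Cmed libraries, and shapes give the library number: GUCY2Chi libraries 12 and 15, at 32520 and 32960 cpm of enterocyte markers, hold the lowest levels of the 3 genes in their group.

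Levels of different genes were compared as FPKM, the deposited value per length of gene. In GUCY2Chi cells Id3 (691 ± 317 FPKM, SD, n = 5), Id2 (377 ± 165) and Id1 (283 ± 153) were the most abundant, and in each of the 5 libraries they stood in that order, although their ranges over libraries overlapped. Bambi (34.9 ± 14.1 FPKM), Smad6 (28.99 ± 8.995) and Bmpr1a (27.0 ± 4.71) came next and were not apart, since Bambi was above Smad6 in 3 of 5 libraries and Smad6 above Bmpr1a in 3 of 5. Smad7 (6.98 ± 2.74), Bmp2 (2.48 ± 0.91), Id4 (1.247 ± 1.14) and Bmpr2 (1.16 ± 0.67) were the lowest.

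In GUCY2Cmed cells Id3 (261 ± 39.4 FPKM, SD, n = 5) was followed by Id1 (129 ± 66.4) and Id2 (71.6 ± 12.21) in each of the 5 libraries. Bmpr1a (18.3 ± 2.34), Smad6 (17.8 ± 6.41) and Smad7 (9.21 ± 2.87) came next, and Bambi (1.56 ± 0.95) ranked 8 of 10 there against 4 of 10 in GUCY2Chi cells. The order within the Id genes depended on the length used: the FPKM imply a length of 764 bases for Id3, where the table gives 1791, and per kilobase of the latter Id1 (228 ± 102 cpm per kilobase) was above Id2 (195 ± 74.6) in GUCY2Chi cells. On that scale Id1 (127 ± 61.5 cpm per kilobase) was also above Id3 (122 ± 11.9) in GUCY2Cmed cells, so that Id3 led there by FPKM and not per kilobase of table length.

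**Figure D4:**
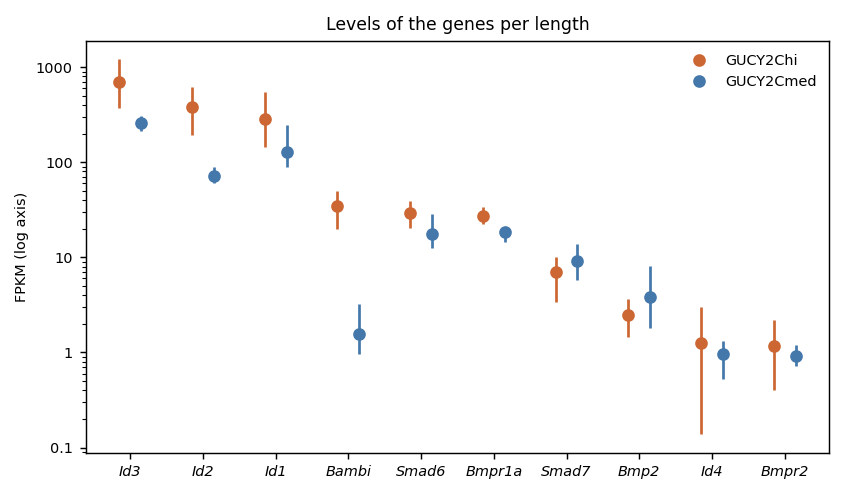
FPKM of the 10 genes in GUCY2Chi (orange) and GUCY2Cmed (blue) cells on a log axis, ordered by the GUCY2Chi mean. Points are means of 5 libraries and lines run from the lowest to the highest library: Id3, Id2 and Id1 lead in GUCY2Chi cells, and Bambi moves from 1.56 to 34.9 FPKM.

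The genes whose pattern over the 10 libraries was closest to each member were found by the root mean square difference of log2(cpm + 0.5), each gene centred on its own mean, among 9977 genes with a mean of at least 5 cpm. For Id2 these were Sh3bp4 (0.174), Pqlc1 (0.189) and Rassf4 (0.202), and for Bambi Mctp2 (0.307), Gm609 (0.318) and Cpn1 (0.347). Id3 was closest to Siah2 (0.182), Ppp4r1l-ps (0.182) and Pim3 (0.198), and Id1 to Errfi1 (0.208), Polr3d (0.212) and Apobec3 (0.237). Bmpr1a had the nearest neighbours of all, Washc4 (0.0702), Stx7 (0.098) and Atad1 (0.114), and Id4 the most distant, Gm15706 (0.571), Fam69a (0.583) and Epdr1 (0.588). The nearest genes were Dmtf1, Chd4 and Lzts3 for Smad6, Dgkz, Trappc10 and Vasp for Smad7, Purb, Zyg11b and Taok1 for Bmpr2, and Tjap1, Gmip and Arntl for Bmp2, at distances from 0.156 to 0.318. No member was among the 3 nearest genes of another, though Id4, with a mean below 5 cpm, was outside the pool and could not be.

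Of 96 further genes of the pathway, in 7 lists, 67 were tested, and 13 were called higher and 3 lower, beside 13.9% and 8.79% of all genes tested. The median log2 fold change over all genes tested was 0.09. All 16 called genes had groups that did not overlap. Among all genes tested, 16.7% had every GUCY2Chi library above every GUCY2Cmed library, and 13.2% had every one below. The 16 genes were picked by the test on the same libraries, so their separation adds no support to the calls. With the mouse number as a block in edgeR 7 of the 16 kept their call, namely Acvrl1, Fst, Twsg1, Msx1, Tgfb1, Inhbb and Neurod1. The other 9 then had adjusted p between 0.011 (Hes1) and 0.0314 (Dlx3), with Crim1 at 0.0131, Ppm1a at 0.0175, Atoh8 at 0.0178, Fkbp1a at 0.018, Rgmb and Acvr1c at 0.0191 and Smad9 at 0.0263. Those 7, Dlx3 and Atoh8 also passed in each of the 10 fits that left out 1 library. Rgmb was lost only without GUCY2Cmed library 14 (adjusted p = 0.0123), Hes1 in 3 of these fits, Smad9 in 4, Fkbp1a in 5, Acvr1c in 6, Ppm1a in 7 and Crim1 in 9, with adjusted p of at most 0.0365.

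Among the other BMP ligands 5 of 12 genes were tested, and edgeR called 0 of them. At an unadjusted edgeR p under 0.05 there were 4, in either direction. Of all 15703 genes tested, 4025 were higher and 3434 lower at that threshold. By contrast limma-voom called 1 ligand lower, and DESeq2 called 1 higher and 1 lower. Fitted changes of the 5 lay on both sides of 0. Bmp3 was between 1.31 and 9.07 cpm in GUCY2Chi libraries and between 9.92 and 19.4 cpm in GUCY2Cmed libraries (log2 fold change -1.75, adjusted p = 0.0185). Bmp6 was between 0.15 and 3.68 cpm against at most 0.36 cpm (log2 fold change 2.92, adjusted p = 0.0296), and Bmp7 between 2.65 and 11.5 cpm against 2.996 to 5.05 cpm (log2 fold change 0.59, adjusted p = 0.252). Bmp4 and Bmp8a had log2 fold changes of -1.73 (adjusted p = 0.104) and -1.87 (adjusted p = 0.0637). The median over the 5 ligands was -1.73.

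Of 10 further receptors and co-receptors, 6 were tested and 2 rose, with a median log2 fold change of 0.79. Acvrl1, which encodes the type I receptor ALK1 best known from endothelium, was between 15.2 and 117 cpm in GUCY2Chi libraries and at most 1.01 cpm in GUCY2Cmed libraries (log2 fold change 6.46, SE 0.59, adjusted p = 2.33e-05). Rgmb, a membrane-anchored BMP co-receptor gene, was between 32.7 and 50.3 cpm against 20.5 to 25.7 cpm (log2 fold change 0.78, adjusted p = 0.00371). Of the 12 mesenchyme and endothelium markers only 5 were tested, and Cdh5, a defining gene of endothelium, had no count in any GUCY2Chi library. The markers Vim (24.4 to 229 cpm), Pecam1 (0.31 to 6.81 cpm) and Col1a2 (0.31 to 1.41 cpm) were the 3 called higher in GUCY2Chi cells. Of these 1 was called with the mouse number as a block in edgeR and 2 with limma-voom. The summed level of the list was 41.7 to 231.8 cpm against 1.53 to 10.3 cpm. In the library with the highest sum Vim alone gave 229 of the 231.8 cpm. The part of such cells in the Acvrl1 level was not tested.

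All 15 genes of BMP Smads and intracellular regulators were tested, of which 2 rose and 1 fell, with a median of -0.22. Smad9, a receptor-activated Smad of the BMP branch, was between 0.76 and 3.50 cpm in GUCY2Chi libraries and at most 0.36 cpm in GUCY2Cmed libraries (log2 fold change 3.54, SE 0.78, adjusted p = 0.00464). Fkbp1a, whose product binds the type I receptors and keeps them quiet, was between 688 and 1081 cpm against 388 to 528 cpm (log2 fold change 0.81, adjusted p = 0.00653). Ppm1a, a phosphatase gene, fell by 0.86 on the log2 scale (adjusted p = 0.00542). Smad1, at 66.2 to 118 cpm in GUCY2Chi libraries, and Smad5 passed in neither direction, with log2 fold changes of 0.35 and 0.26.

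Of 17 extracellular antagonists and modulators, 10 were tested, 2 rose and 1 fell, and the median was 0.59. Twsg1, which encodes a BMP-binding protein, was between 49.1 and 149.5 cpm in GUCY2Chi libraries and between 22.6 and 34.0 cpm in GUCY2Cmed libraries (log2 fold change 1.85, SE 0.26, adjusted p = 0.000417). Fst, the activin-binding follistatin gene, was between 2.27 and 8.48 cpm in GUCY2Chi libraries, with 385 counts in all against 3 in GUCY2Cmed libraries, a ratio of 108 with a 95% exact interval of 36.8 to 527 that covers counting error only (adjusted p = 9.54e-05). Crim1, a gene of a membrane protein that binds BMPs, fell by 1.03 (adjusted p = 0.00936). Neither Nog nor Grem1, the best-known crypt antagonists, was among the genes tested.

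Other BMP target genes were tested for 6 of 12, of which 3 rose and none fell, with a median of 3.43, or 1.81 with genes that had no count in GUCY2Cmed libraries set to their bound. Msx1, a homeobox gene, was between 3.59 and 14.1 cpm in GUCY2Chi libraries and at most 0.66 cpm in GUCY2Cmed libraries (log2 fold change 4.34, SE 0.57, adjusted p = 0.000222). Atoh8, a bHLH gene, was between 1.95 and 7.53 cpm against 0.47 to 1.30 cpm (log2 fold change 2.52, adjusted p = 0.0019). Dlx3 had 72 counts in GUCY2Chi libraries and none in GUCY2Cmed libraries, at least 4.12-fold higher against a floor of 3 counts in each library (adjusted p = 0.00284).

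In the TGF-beta and activin branch 14 of 18 genes were tested, 3 rose and none fell, and the median was 0.16. Inhbb, the activin B subunit gene, was between 4.16 and 21.1 cpm in GUCY2Chi libraries and had no count in any GUCY2Cmed library, at least 53.7-fold higher against the same floor (adjusted p = 0.000237). Tgfb1 was between 1.64 and 5.60 cpm against at most 0.38 cpm (log2 fold change 4.10, adjusted p = 0.00114), and Acvr1c, the gene of the receptor ALK7, was between 5.92 and 12.9 cpm against 2.14 to 4.75 cpm (log2 fold change 1.32, adjusted p = 0.00669).

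Id proteins act through bHLH factors, and 11 of 12 such genes were tested. Neurod1, an enteroendocrine differentiation factor that is also in the enteroendocrine marker list, was between 297 and 1208 cpm in GUCY2Chi libraries and at most 4.28 cpm in GUCY2Cmed libraries (log2 fold change 8.45, SE 0.63, adjusted p = 5.87e-06). Hes1, a Notch target, was between 11.8 and 34.5 cpm against 47.1 to 78.7 cpm and fell by 1.46 on the log2 scale (adjusted p = 0.00385). The E proteins, the usual partners of the Id proteins, did not pass the test: log2 fold changes were -0.26 for Tcf3 (adjusted p = 0.541), 0.56 for Tcf4 (adjusted p = 0.234) and 0.09 for Tcf12 (adjusted p = 0.735).

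**Figure D5:**
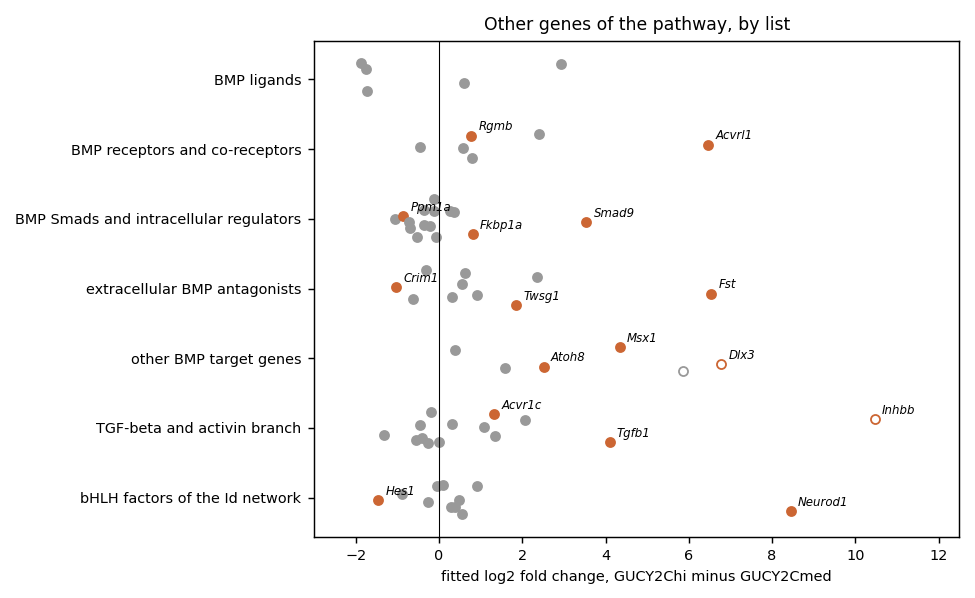
Fitted log2 fold changes, GUCY2Chi minus GUCY2Cmed, of the 67 tested pathway genes by list, with vertical scatter within a list for legibility. Orange marks the 16 genes with an adjusted p under 0.01, which are named, and open circles are genes with no count in GUCY2Cmed libraries, whose fitted value is no bound.

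Marker lists of position along the crypt and villus were examined, since BMP activity is graded along that axis. Slc5a1, Apoa1 and Fabp1 of the mid-villus list and Apoa4 of the villus tip list are also enterocyte markers here. Summed enterocyte RNA was lower in GUCY2Chi libraries, so those lists cannot tell the position of GUCY2Chi cells from their content of enterocyte RNA. Of the 12 enterocyte markers edgeR called 3 lower, limma-voom 9 and DESeq2 11, and edgeR called 1 to 7 when 1 library was left out. In edgeR 3 of 10 mid-villus markers and 1 of 6 lower-villus markers were called lower and none higher, with medians of -2.08 and -2.16. These counts depended on the tool and the libraries: limma-voom called 7 and 3 lower, DESeq2 8 and 4, and edgeR without GUCY2Chi libraries 12 and 15 called 9 and 6. Over all genes tested edgeR called 1381 lower, limma-voom 1797, DESeq2 2235, and edgeR without those 2 libraries 2186. Those 2 libraries held the highest sums of both lists in their group, so leaving them out lowers that group's mean by itself. Leaving out 1 library gave 2 to 5 mid-villus and 0 to 3 lower-villus markers, the most without GUCY2Chi library 15. Of 8 villus tip markers 2 were called higher in edgeR, Nt5e and Egfr (median of the 8, -1.06), and 0 were called lower in edgeR, 2 in limma-voom and in DESeq2, and 4 in edgeR without GUCY2Chi library 15. Of 12 genes of proliferating crypt cells edgeR called 9 lower and none higher (median -1.59), but with the mouse number as a block it called 1, and limma-voom with the block called 4. That count was 4 without TMM scaling and ran from 3, without GUCY2Chi library 2, to 10 when 1 library was left out. Over all genes tested, lower calls numbered 779 with the block in edgeR and 1382 with it in limma-voom. They numbered 557 without TMM scaling and 512 without GUCY2Chi library 2. Of 8 crypt stem cell genes none was called by edgeR, limma-voom or DESeq2 (median -0.42).

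None of 8 goblet, 6 Paneth, 7 leukocyte and 10 forebrain neuron genes tested was called by edgeR or limma-voom, and DESeq2 called 1 goblet gene. Of 7 tuft cell genes edgeR called 1 higher, limma-voom 0 and DESeq2 3, and the block left 0 in either tool. Of 6 genes of enteric glia and neurons edgeR called 1 higher, with the block too. The summed level of the proliferation genes was between 122 and 300.4 cpm in GUCY2Chi libraries and between 372 and 874 cpm in GUCY2Cmed libraries, of which library 7, with the highest Id1, Id2, Id3 and Bambi levels of that group, had the highest. The part of cell position in the levels of the BMP and Id genes was not tested.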

How the data were processed

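The authors deposited read counts per gene, which are raw whole numbers, and FPKM values; the sequencing provider aligned paired-end reads with STAR. The labels name mm9, but 99.8% of 37795 symbols overlapped their GRCm38 position and 9.65% of 28403 their NCBIM37 position, so positions are on GRCm38. The 10 other per-sample columns and the authors' own comparison, which holds fold changes and p-values made with limma 3.40.6 and edgeR 3.26.8 per the submitters' processing notes, were not used. The tests were run in R 4.3.3 (edgeR 4.0.16; DESeq2 1.42.0; limma 3.58.1), and tables and figures were made with Python 3.11.15 and scipy 1.17.1. Testing was limited to 15703 of 54532 genes, those above 0.5 cpm in 3 or more libraries. The groups were compared without a mouse term, as the study's methods name none. The script was tested on simulated data.

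The members, the lists and the tests were chosen with earlier results of these data known. Genes named are the 10 members, at most 4 called genes of each list by size of change, and the 3 nearest genes of each member; list genes outside this rule that are given with values (the 5 ligands, Smad1, Smad5, Tcf3, Tcf4, Tcf12 and marker genes) were chosen after their values were seen. The study sorted each of 5 mice into both gates, so equal numbers were taken to pair libraries, which the labels do not state. Deviations of same-numbered libraries from their group means correlated between -0.22 and 0.27, above 0.1 for 1 of 5. Only 1 of 5 GUCY2Chi libraries correlated best with the GUCY2Cmed library of its own number. The ratios within numbers and the block rest on this pairing. Floors of 3 counts and intervals cover counting error only.

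Alternatives were limma-voom, DESeq2, the replicate block, voomWithQualityWeights, other scaling factors, other filters, libraries left out, an adjusted p under 0.05, a pseudocount of 0.1 and cpm per kilobase.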

Additional observations from a re-analysis of the deposited data

Results flagged for a closer look

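In 3 of 20 groups of 5 libraries, 1 library lay further from the rest than Dixon's 95% critical value allows, and chance gives about 1 in 20. Id1 was at 274.5 cpm in GUCY2Cmed library 7, a gap to the next library of 0.911 of the whole range. Bambi was at 17.3 cpm in the same library, with a gap of 0.808 of the range. Bmpr1a was at 79.4 cpm in GUCY2Chi library 14, with a gap of 0.733 of the range. GUCY2Cmed library 7 had the lowest summed levels of forebrain neuron genes (16.6 cpm) and of enteroendocrine markers (125 cpm) of all 10 libraries. It also had the highest summed levels of proliferation genes (874 cpm) and crypt stem cell genes (1235 cpm). The part of these lists in the 2 values of that library was not tested.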

How the results depend on the processing

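Bambi and Id2 kept their direction and their call in all 23 alternatives, with log2 fold changes from 4.07 to 4.68 and from 1.95 to 2.47. Id3 kept its direction in all 23 and its call in 15. The replicate block in edgeR changed the call of Id3 and of no other member; in limma-voom with the block Id3 passed (adjusted p = 0.0075). Between 2 and 4 members were called higher and 0 lower in every setting. Bmp2, Smad7, Bmpr1a and Smad6 kept their direction in all alternatives and were called in none. Bmpr2 turned to -0.13 with limma-voom, -0.11 with the block in edgeR, -0.51 with voomWithQualityWeights, -0.32 without GUCY2Chi libraries 12 and 15, and -0.40 without all 4 libraries numbered 12 and 15. Id4 turned to -0.42, -0.41, -0.62, -0.42 and -0.60 in the same settings and to -0.057 with the block in limma-voom. With 1 library left out, Bmpr2 ran from -0.24 to 0.33 and Id4 from -0.47 to 0.35. The cause was not tested.

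The block in edgeR also left 7 of the 16 called pathway genes past the threshold (7 higher and 0 lower). Over all genes, 1294 were called higher and 779 lower with the block in edgeR, and 3367 and 2767 at an adjusted p under 0.05. The lower count was 2235 with DESeq2, 2388 with voomWithQualityWeights, 557 without TMM, where the median gene moved up by 0.28 on the log2 scale, and 2186 without GUCY2Chi libraries 12 and 15. With 1 library left out it ran from 512 to 1609, and the higher count from 1636 to 2534. The exact permutation p of each member stayed on the same side of 0.05 with a pseudocount of 0.1. Depth limits Id4 and Bmpr2, with as few as 7 and 33 counts in a library.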
